A study of Mus musculus with 2 samples.

Results

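The Kcn genes encode the pore-forming and auxiliary subunits of potassium channels. They were taken as every protein-coding gene of the mouse annotation (GENCODE M21, GRCm38/mm10) whose symbol starts with Kcn, which gave 94 of the 21670 coding genes on autosomes and the X chromosome. The data are DNase-seq of cerebellum, an assay in which DNase I cuts accessible DNA and sites rich in cuts are called as peaks. One group was assayed, in 2 libraries labelled biological replicates 1 and 2: male B6CASTF1/J mice, F1 hybrids of the B6 laboratory strain with CAST, a strain derived from wild mice, aged 4 days. The label of each library names 3 males, so each library may be a pool, and both carry the same donor entry. There was no treatment, mutant or other age, so the comparisons are between the libraries and between Kcn genes and all coding genes, and no test between conditions was possible.

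Potassium channels carry the outward current that sets the resting potential of a cell and ends its action potential. The voltage-gated pore subunits (Kcna, Kcnb, Kcnc, Kcnd, Kcnh and Kcnq) open on depolarisation, silent subunits (Kcnf, Kcng, Kcns and Kcnv) join them without forming channels alone, and auxiliary subunits (Kcnab, Kcnip, Kcne and Kcnmb) tune their gating. Inward rectifiers (Kcnj) and leak channels (Kcnk) hold the resting potential, glial inward rectifiers take up potassium released by neurons, and calcium- or sodium-activated channels (Kcnma, Kcnn, Kcnt and Kcnu) couple firing to ion entry. In the cerebellum such channels are known for the fast firing of Purkinje cells and the excitability of granule cells.

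A gene was called open in a library when a peak lay within 500 bp of any of its coding starts, and the strongest peak there gave the gene its value. Values are the authors' depth-normalised signal. Replicate 2 had 131518 peaks and replicate 1 had 61896, and the depth in reads is unknown. Every value under 20 was a whole multiple of a small step, within 0.05 steps, and if 1 step stands for 1 cut, exact 95% Poisson intervals can be given; they cover counting error only. Markers were checked for the labelled tissue: 4 of 5 granule cell progenitor genes and 4 of 5 Purkinje genes were open in both libraries, beside 58.9% of all genes. So were 4 of 6 granule neuron genes, 4 of 5 of the oligodendrocyte lineage and 2 of 5 of GABAergic interneurons. Of the latter, Pax2, Ptf1a and Tfap2b were open in neither library. Of 9 forebrain genes, 3 were open in both and all 9 in replicate 2, so these counts do not single out cerebellum. No microglia, red blood cell, liver or skeletal muscle marker was open in either, and Gabra6 and Pcp2, markers of mature granule and Purkinje cells, were open in neither.

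Sequences are shown for 3 promoters that the results turn on: that of Kcnj9, open in replicate 2 alone, that of Kcnj10, the neighbour of Kcnj9, and that of Kcnk10, which differed most between the libraries among the leak channels. Each is taken from the part of the replicate 2 peak outside exons in the mm10 reference, 5′ to 3′ on the strand of its gene. For Kcnj10 and Kcnk10 the 200 bp of that part nearest the start are shown. Bases inside a deposited footprint of either library (a short stretch protected from cutting) are in capitals. These are reference letters, not the alleles of the hybrid mice.
Kcnj9, chr1:172329319-172329440, minus strand: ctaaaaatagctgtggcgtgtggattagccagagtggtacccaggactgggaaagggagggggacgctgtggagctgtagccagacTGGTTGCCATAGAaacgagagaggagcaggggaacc
Kcnj10, chr1:172341010-172341209, plus strand: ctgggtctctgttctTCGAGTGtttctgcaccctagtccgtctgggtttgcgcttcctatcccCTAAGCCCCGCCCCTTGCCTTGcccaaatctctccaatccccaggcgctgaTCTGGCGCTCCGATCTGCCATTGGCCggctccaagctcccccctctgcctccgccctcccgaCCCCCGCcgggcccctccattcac
Kcnk10, chr12:98574713-98574912, minus strand: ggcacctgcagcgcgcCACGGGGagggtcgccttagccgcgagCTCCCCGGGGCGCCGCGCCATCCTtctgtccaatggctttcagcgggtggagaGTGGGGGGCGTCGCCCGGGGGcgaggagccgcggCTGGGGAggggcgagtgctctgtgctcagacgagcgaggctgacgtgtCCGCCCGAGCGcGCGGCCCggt

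Of the 94 Kcn genes, 57 (60.6%) were open in both libraries, beside 58.9% of all coding genes. No Kcn gene was open in replicate 1 alone, beside 0.974% of all genes. A further 18 (19.1%) were open in replicate 2 alone, beside 6.1% of all genes, and 19 (20.2%) were open in neither, beside 34%. In this peak list the share open in both was thus close to the background, whereas the share open in replicate 2 alone was above it. In the stricter of the authors' 2 peak lists the share open in both was below the background, at 37.2% beside 52.3%. Read by library, 57 (60.6%) were open in replicate 1, beside 59.9% of all genes, and 75 (79.8%) in replicate 2, beside 65%.

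**Figure D1:**
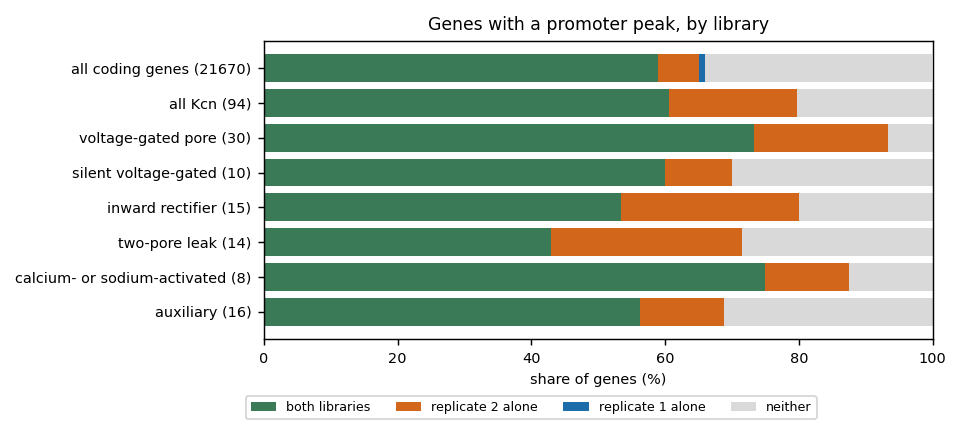
Share of genes (%, horizontal axis) with a promoter peak in both libraries, in 1 alone or in neither, for all coding genes, all Kcn genes and the Kcn genes by role, with the number of genes in brackets. The orange share, open in replicate 2 alone, is 6.1% of all genes and 19.1% of Kcn genes.

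The Kcn promoters that were open had low values. Among the genes open in both, the median Kcn value was 0.961 in replicate 1 and 1.54 in replicate 2, beside 2.14 and 4.46 over all genes. Ranked among all open promoters of its library, the median open Kcn gene stood at percentile 17.3 in replicate 1 and 20.1 in replicate 2, where 50 is the middle. In the upper 10% of values, 1 of 57 open Kcn genes was found in replicate 1 (10.1% of all genes) and 1 of 75 in replicate 2 (10% of all genes). That gene was Kcnab2 in both libraries, and its peak also lies in the promoter window of the neighbouring gene Nphp4.

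Voltage-gated pore subunits were the role group with the smallest share of closed members. Of 30, 22 were open in both libraries, 6 in replicate 2 alone and 2 in neither, beside 58.9%, 6.1% and 34% of all genes. In the stricter peak list 14 of the 30 were open in both, beside 52.3% of all genes. All 4 Kcnc genes, which encode the fast Kv3 subunits, were open in both. Kcnc1 had 0.961 and 2.12, and Kcnc4 had 0.568 and 0.778. Kcnc2 had 0.490 and 0.499, nearly equal values at percentiles 2.19 and 5.98. Low promoter values were thus found also among the Kv3 genes.

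Of the 8 Kcna genes, the Shaker-type Kv1 subunits, 6 were open in both and 2, Kcna5 and Kcna10, in replicate 2 alone. Kcna3 was highest, at 2.00 and 4.51. Kcna2, an axonal subunit, had 1.05 and 2.89, and Kcna1, its partner in the axon and the gene of episodic ataxia, had 0.639 and 1.02. Kcna6 had 1.12 and 1.55, Kcna4 had 0.774 and 1.54, and Kcna7 had 1.08 and 0.998. Kcna7 was 1 of 4 Kcn genes with a lower value in replicate 2. Kcna1, Kcna5 and Kcna6 lie side by side on chromosome 6, and Kcna2, Kcna3 and Kcna10 on chromosome 3, and in each cluster 1 gene lacked a peak in replicate 1.

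Both Kcnb genes, the delayed rectifiers of the Kv2 type, were open in both libraries. Kcnb2 had 1.30 and 1.69. The 3 Kcnd genes, which carry the A-type current of granule cells, were open in both at low values. Kcnd2 had 0.780 and 1.20, and Kcnd3, a gene of spinocerebellar ataxia, had 0.722 and 1.04. Kcnd1, on the X chromosome, had 0.458 and 1.54. By strongest peak it was the lowest of the 3 in replicate 1 and the highest in replicate 2. With the peaks of a promoter summed, Kcnd1 was the lowest in both libraries, at 0.458 and 1.95. The sums were 1.91 and 2.33 for Kcnd2 and 1.44 and 2.89 for Kcnd3. The order of the Kcnd genes thus differed between the libraries and with the measure.

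The Kcnh genes (ether-a-go-go type) differed widely between members. Kcnh1 had 2.36 and 5.14, and Kcnh2, which encodes the ERG channel, had 2.34 and 4.90, both past the middle of all open promoters. Kcnh5 had 1.22 and 1.50, Kcnh8 had 0.690 and 0.978, and Kcnh7 had 0.593 and 0.998. Kcnh3 and Kcnh4 had no peak in replicate 1 and values of 3.31 and 3.23 in replicate 2, higher there than Kcnh5, Kcnh7 and Kcnh8. In replicate 1 the nearest peak to a coding start of Kcnh3 was 26800 bp away, and that of Kcnh4 1651 bp away. Kcnh6 was open in neither.

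Kcnq genes encode the M-current and related slow channels. Kcnq3 had 1.62 and 3.80, and Kcnq5 had 1.00 and 1.54. Kcnq1, the cardiac and epithelial member, was open in neither. Of the 5 Kcnq genes, 2 were open in both libraries and 2 in replicate 2 alone.

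Of the 10 silent subunits, 6 were open in both, 1 in replicate 2 alone and 3 in neither. Kcnf1 had 0.903 and 2.62. Kcnv1 had 0.510 and 1.91, a log2 difference of 1.91, the largest of all Kcn genes open in both. Kcns2 had 0.768 and 1.14, Kcns3 had 0.684 and 1.20, and Kcng3 had 0.548 and 0.659. Kcng2 ran the other way, with 0.819 and 0.539, and its intervals, 0.683 to 0.975 and 0.428 to 0.670, did not overlap. By its strongest peak it was the Kcn gene with the largest fall from replicate 1 to replicate 2, a log2 difference of -0.60. Its promoter held 1 peak in replicate 1 and 2 in replicate 2. With these summed, Kcng2 had 0.819 and 0.971, so the fall did not hold for the sum. Kcng1 had 0.725 in replicate 2 alone, and Kcng4, Kcns1 and Kcnv2 were open in neither.

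Of the 15 inward rectifiers, 8 were open in both, 4 in replicate 2 alone and 3 in neither. Kcnj11, the pore of the ATP-sensitive channel, had 2.96 and 3.69, a log2 difference of 0.32 beside the median of 1.02 over all genes. Among the genes open in both libraries it stood at percentile 69.2 in replicate 1 and 41.6 in replicate 2. Kcnj2 had 2.22 and 4.39. Kcnj6, a G protein-gated subunit of granule cells and the gene mutated in the weaver mouse, had 2.06 and 3.21. Its G protein-gated partners differed: Kcnj3 had 1.17 and 1.50, Kcnj5 had 0.366 in replicate 2 alone, and Kcnj9 had 3.90 in replicate 2 alone.

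Kcnj9 had the highest value of the 18 genes open in replicate 2 alone (interval 3.59 to 4.23), and stood there at percentile 49.0. In replicate 1 its promoter held a deposited interval with a false discovery rate of the cut rate of 0.0473, where all deposited intervals are under 0.05, and no peak. The nearest replicate 1 peak was 2842 bp away, with a value of 1.33. Kcnj10, the glial inward rectifier that clears potassium and the neighbour of Kcnj9 on the opposite strand, had 1.19 and 3.00. Kcnj16, its partner in glia, had 0.510 and 0.652. Kcnj12 had 0.684 and 0.599 and Kcnj8 had 0.664 and 0.592, both slightly lower in replicate 2 with overlapping intervals. With the peaks of a promoter summed, Kcnj8 had 0.664 and 0.951, the higher value in replicate 2, and Kcnj12 was unchanged. Kcnj4 had 1.35 and Kcnj15 0.346 in replicate 2 alone, and for Kcnj4 a replicate 1 peak of 1.19 lay 780 bp from the start, outside the window.

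The leak channels (Kcnk) had the smallest share open in both among the role groups of the plot of shares: 6 of 14, with 4 in replicate 2 alone and 4 in neither. Kcnk10 had 1.23 and 4.44, with intervals of 1.06 to 1.41 and 4.11 to 4.79, and stood at percentiles 24.6 and 49.6 among the genes open in both. Kcnk5 had 1.26 and 1.67. Kcnk3, a TASK channel of granule cells, had 1.17 and 1.20, and Kcnk2 had 0.787 and 1.26. Kcnk1 had 0.852 and 1.02, and Kcnk13 had 0.813 and 1.01. Kcnk9, the TASK partner of Kcnk3 in granule cells, had no peak in replicate 1 within the window, 1 of 0.574 lying 1347 bp away, and 0.472 in replicate 2. Kcnk15, Kcnk12 and Kcnk4 had 1.22, 1.14 and 0.998 in replicate 2 alone, and Kcnk6, Kcnk7, Kcnk16 and Kcnk18 were open in neither.

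Of the 8 calcium- or sodium-activated channel genes, 6 were open in both, 1 in replicate 2 alone and 1 in neither. Kcnn3 led with 2.04 and 4.52, followed by Kcnn1 with 1.28 and 2.00. Kcnn2, the small-conductance channel of Purkinje cells, had 0.748 and 1.08. Kcnma1, the large-conductance (BK) pore, had 0.877 and 1.96, with 7 of its 11 coding starts open in each library. The sodium-activated Kcnt1 had 1.12 and 1.15, and Kcnt2 had 1.06 and 1.91. Kcnu1, known from sperm, had 0.798 in replicate 2 alone. Kcnn4, known from red blood cells and immune cells, was open in neither.

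Auxiliary subunits divided by family. All 3 Kcnab and all 4 Kcnip genes were open in both libraries. Kcnab2, a beta subunit of Kv1 channels, had 5.63 and 18.3, the highest Kcn values in both libraries, from the peak shared with Nphp4. Kcnab3 had 1.01 and 2.60, and Kcnab1 had 0.864 and 0.984. Among the Kv4 partners, Kcnip4 had 1.20 and 2.66, Kcnip3 had 1.11 and 2.08, Kcnip2 had 0.832 and 1.08, and Kcnip1 had 0.742 and 0.911. Of the 5 Kcne genes, known chiefly from heart and epithelia, Kcne1l had 0.361 and 0.479, the lowest replicate 1 value of all, and Kcne1, Kcne2, Kcne3 and Kcne4 were open in neither. Of the BK beta subunits, Kcnmb4, the neuronal one, had 0.819 and 2.10. Kcnmb2 had 0.645 and Kcnmb1, the smooth muscle one, had 0.306 in replicate 2 alone, the latter the lowest of the 18, and Kcnmb3 was open in neither.

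**Figure D2:**
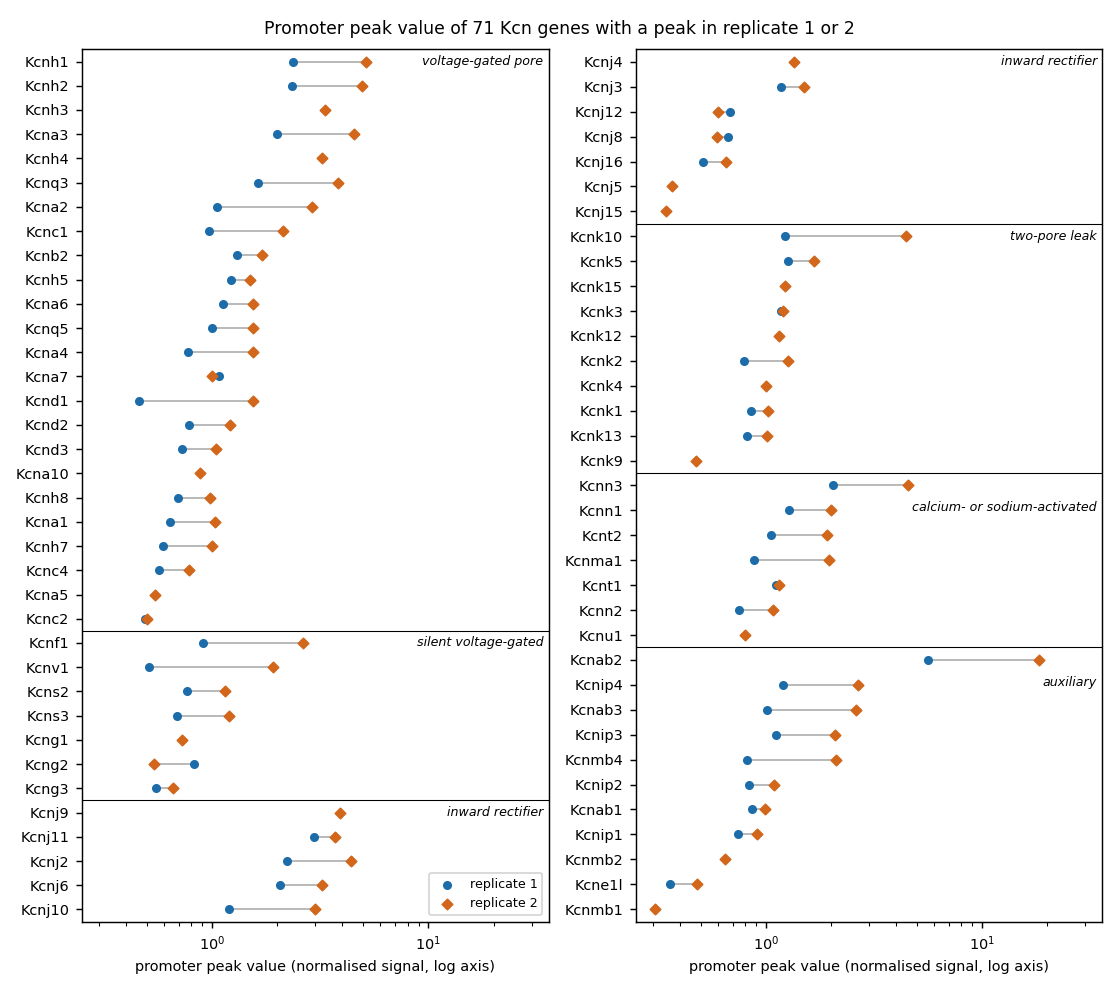
Promoter peak value (authors' normalised signal, log axis) of 71 of the 75 Kcn genes open in at least 1 library (the other 4 are not shown), grouped by role and ordered by mean value, with circles for replicate 1 and diamonds for replicate 2. A lone diamond marks a gene open in replicate 2 alone, and Kcnab2 has the highest value in both libraries (5.63 and 18.3).

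The 19 genes open in neither library were Kcne1, Kcne2, Kcne3, Kcne4, Kcng4, Kcnh6, Kcnj1, Kcnj13, Kcnj14, Kcnk6, Kcnk7, Kcnk16, Kcnk18, Kcnmb3, Kcnn4, Kcnq1, Kcnrg, Kcns1 and Kcnv2. Kcnrg encodes a cytosolic regulator of Kv channels and is no channel subunit. Several others are known from kidney (Kcnj1), choroid plexus and retina (Kcnj13), retina (Kcnv2) or sensory neurons (Kcnk18). Kcnv2 had a replicate 1 peak of 0.361 at 928 bp from its start, outside the window. The deposited intervals of low false discovery rate met the promoters of 3 of the 37 genes closed in replicate 1 (8.11%, beside 2.87% of all closed genes): Kcnj9, Kcnk12 and Kcnv2. They met 0 of the 19 closed in replicate 2, beside 2.23% of all.

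CpG content, which goes with open promoters in general, was counted in 500 bp on either side of the first coding start alone. All genes were divided into terciles by it. A gene was still called open by a peak at any of its coding starts. For genes with several starts, the tercile may thus not describe the start that was open. The median count was 42 both for Kcn genes and for all genes. In the lowest tercile, 3 of 20 Kcn genes were open in both libraries, beside 11.3% of all genes, and in the middle tercile 35 of 47, beside 72%. The highest tercile held 27 Kcn genes, 16 of them voltage-gated pore subunits. Of the 27, 19 (70.4%) were open in both, beside 93.6%. The CpG-rich Kcn promoters were thus below the background in the share open in both: 7 of these 27 (25.9%) were open in replicate 2 alone, beside 3.2% of all genes of that tercile. They included Kcnh3, Kcnj4, Kcnk9, Kcnk12 and Kcnk15. In the lowest and middle terciles 4 of 20 and 7 of 47 were open in replicate 2 alone, beside 6.31% and 8.78%.

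Of the 37 Kcn genes without a peak in replicate 1, 18 (48.6%) had one in replicate 2, beside 15.2% of all such genes. The median value of these 18 was 0.838, beside 0.565 for all genes open in replicate 2 alone. When only as many of the strongest replicate 2 peaks were kept as replicate 1 has, 11 Kcn genes were open in replicate 2 alone and 7 in replicate 1 alone, beside 2.515% and 3.636% of all genes. The 11 included Kcna10, Kcng1, Kcnh3, Kcnh4, Kcnj4, Kcnj9, Kcnk4, Kcnk12, Kcnk15 and Kcnu1. The 7 were Kcnc2, Kcne1l, Kcng2, Kcng3, Kcnj8, Kcnj12 and Kcnj16, none of them with a value over 0.82 in replicate 1. In the stricter deposited peak list 35 Kcn genes (37.2%) were open in both libraries, beside 52.3% of all genes. By library, 35 (37.2%) were open in replicate 1, beside 52.7%, and 67 (71.3%) in replicate 2, beside 60.8%. There 32 Kcn genes were open in replicate 2 alone, beside 8.57% of all genes, and 0 in replicate 1 alone, beside 0.452%.

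Some lists of cell type markers also differed between the libraries, against 6.1% of all genes open in replicate 2 alone. Of 9 forebrain genes, 3 were open in replicate 1 and 9 in replicate 2, with summed values of 3.04 and 17.6. Among them, Emx1, Tbr1, Six3, Dlx1 and Dlx2 had no peak in replicate 1 and values of 0.698 to 1.66 in replicate 2. Of 6 genes of astrocytes and Bergmann glia, 2 were open in replicate 1 and 6 in replicate 2, with sums of 2.59 and 8.81, and Gdf10, Aqp4, Gfap and Aldh1l1 had no peak in replicate 1. In other lists the open genes were equal in number: 4 and 4 of 5 Purkinje genes, with sums of 5.63 and 12.1, 4 and 4 of 5 genes of the oligodendrocyte lineage, 2 and 2 of 5 of GABAergic interneurons, and 0 and 0 of microglia. Granule cell progenitors had 4 and 5 of 5, granule neurons 4 and 5 of 6, endothelium 2 and 3 of 5 and choroid plexus 1 and 2 of 4. The 18 Kcn genes open in replicate 2 alone are known from various places. Kcnh3 and Kcnh4 are known chiefly from forebrain, and Kcnj9 is expressed widely in brain. Kcnk9 is known from granule cells, Kcnmb1 from smooth muscle and Kcnu1 from sperm. The part of the listed cell types, and of the larger number of peaks in replicate 2, in the Kcn genes open in replicate 2 alone was not tested.

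Among the 57 Kcn genes open in both, 53 (93%) had the higher value in replicate 2, beside 92.6% of all genes. The size of that difference was smaller for the Kcn genes: the median log2 difference was 0.64, beside 1.02 over all genes. Of the 57, 19 (33.3%) lay above the median of all genes, by construction 50%. Kcn promoters were also low in value, and no comparison with promoters of like value was made. The 5 largest differences were those of Kcnv1 (1.91), Kcnk10 (1.86), Kcnd1 (1.75), Kcnab2 (1.70) and Kcnf1 (1.54). At the other end stood Kcng2 (-0.60), Kcnj12 (-0.19), Kcnj8 (-0.17), Kcna7 (-0.11) and Kcnc2 (0.03). Dividing values by each library's median over all genes open in both lowers every gene's difference by the same amount, which gave -0.42 for the Kcn median and -0.04 for all genes. Ranked among the 12774 genes open in both, the same genes in each library, the median Kcn gene stood at percentile 16.1 in replicate 1 and 16.9 in replicate 2. By this rank, chosen after seeing the data, 35 of 57 (61.4%) stood higher in replicate 2, beside 49.5% of all genes.

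**Figure D3:**
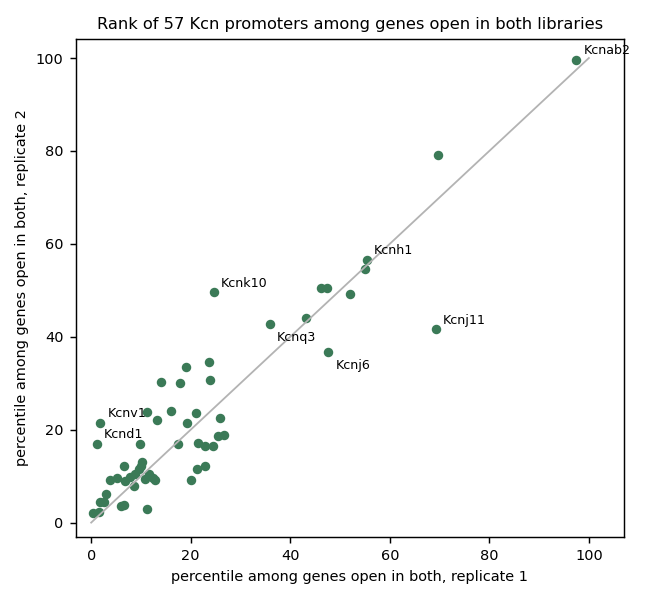
Percentile rank of the 57 Kcn promoters open in both libraries among all 12774 genes open in both, in replicate 1 (horizontal) and replicate 2 (vertical), with the line of equal rank in grey. Kcnj11 lies farthest under the line (69.2 and 41.6) and Kcnk10 farthest above it (24.6 and 49.6).

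Many Kcn genes have several starts: 60 of 94 had more than 1 coding start. Of the 36 such genes open in both libraries, 18 had every start open in both, and 6 had more starts open in replicate 2. Kcnt1 had 3 of 8 starts open in replicate 1 and 7 of 8 in replicate 2, at nearly equal values. The centre of the strongest peak lay within 100 bp of a start in 34 of 57 genes in replicate 1 and in 38 of 75 in replicate 2. At least 1 footprint lay in the promoter peaks of 55 of 57 open Kcn genes in replicate 1 (96% of all open genes) and of 73 of 75 in replicate 2 (97.1% of all). The median number was 3 and 4 per open Kcn gene, beside 3 and 5 over all open genes. Kcnk10 held 7 footprints in replicate 1 and 17 in replicate 2, and Kcnj9 held 1 in replicate 2.

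Short sequences were searched on both strands in 300 bp of each promoter (250 bp before the first coding start to 50 bp after it). The sequence GGGCGG, bound by SP and KLF factors, was found in 51.1% of Kcn promoters and 44.2% of all promoters of that length. Among the promoters open in both libraries, the shares were 57.9% and 62.8%. The CRE sequence TGACGTCA was in 0 of 94 Kcn promoters (2.48% of all), and GCGCATGC, of NRF1, in 1 (3.42% of all). Both sequences go with broadly active promoters. For the neuronal repressor REST, the site was searched in 2 parts: TTCAGCACC was in the promoters of Kcnh6 and Kcnk3 (2.13%, beside 0.365%), and GGACAGC in 12 Kcn promoters (12.8%, beside 6.98%). Kcnh6 and Kcnk3 held both parts, though whether as 1 site was not examined; Kcnk3 was open in both libraries and Kcnh6 in neither. Counts this small are a description only, and a match is not a bound site.

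In the printed promoters, the footprint of Kcnj9 holds GTTGCCA, part of the sequence bound by RFX factors, searched after the sequence had been seen. That sequence was in 2 of 94 Kcn promoters, Kcne3 and Kcnj9 (2.13%, beside 4.31% of all). The promoters of Kcnj10 and Kcnk10 each hold GGGCGG within a footprint.

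Distal sites were peaks over 1000 bp from any coding start that overlapped between the libraries by at least 1 bp. In the bodies of the Kcn genes and 50000 bp on either side there were 279 such peaks, 1.16% of the 24085 in the genome. At least 1 was found at 82 of 94 Kcn loci (87.2%), beside 71.9% of all loci. The median was 2 per locus for Kcn genes and for all genes, and the mean 3.19 and 2.16. Kcn genes are long, with a median of 30.8 kb beside 17.4 kb, and per 100 kb of locus the medians were 1.56 and 0.975. The density of distal sites was thus higher at Kcn loci also per length; loci are not replicates, and the difference has no test.

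Of the 279 peaks, 108 lay in the body of a Kcn gene, 52 in that of another coding gene in the flank and 119 between genes. The nearest coding start was that of a Kcn gene for 156 (55.9%), and 39 overlapped a coding exon. The values were higher in replicate 2 at 217 (77.8%), beside 75.3% of all shared distal peaks, with a median log2 difference of 0.42 beside 0.49. The Kcn medians were 1.05 and 1.68 and those of all shared distal peaks 0.942 and 1.46. Distal sites at Kcn loci therefore differed little in value from distal sites elsewhere, whereas Kcn promoters were low among promoters.

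**Figure D4:**
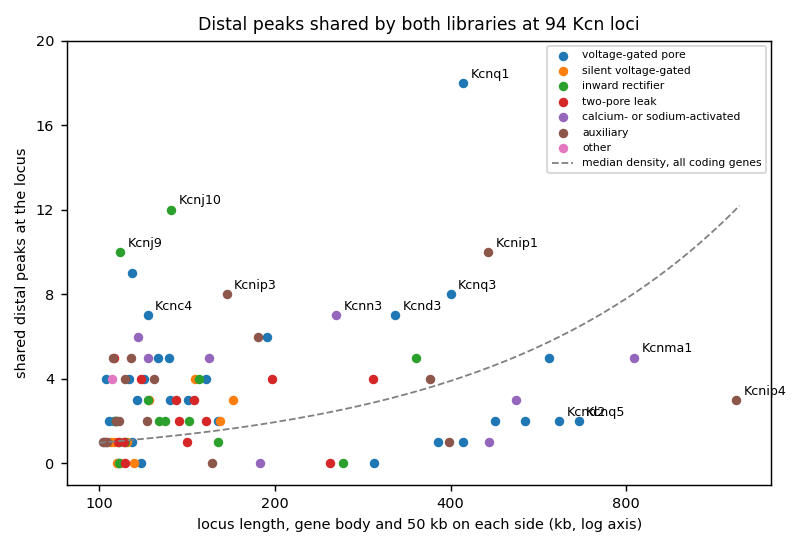
Number of shared distal peaks at each of the 94 Kcn loci against locus length (kb, log axis), coloured by role. The dashed curve is the median density of all coding genes (0.975 per 100 kb); Kcnq1 has the most peaks (18), and Kcnj9 and Kcnj10 lie far above the curve at short loci.

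Kcnq1 had the most distal peaks, 18, of which 10 lay in its body, although its promoter was closed in both libraries (chromosome 7, 143106362 to 143427042, plus strand). Its body also holds the start of Kcnq1ot1, the imprinted non-coding RNA transcribed from the opposite strand (143203458 to 143296549). A shared peak lay on that start, at 143296461 to 143296760, with 1.40 in replicate 1 and 4.45 in replicate 2, the highest replicate 2 value of the 18. A cluster of shared peaks at the far end of the locus lay by the imprinted gene Cdkn1c, among them 1 of 3.21 and 3.17. Most others were weak, with a median over the 18 of 0.832 and 0.685, and 5 of 18 were higher in replicate 2. The count at Kcnq1 therefore includes sites that lie on or near starts of other transcripts.

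Kcnj10 had 12 distal peaks and Kcnj9 10, and the 10 are common to both loci (chromosome 1, 172320501 to 172329318 on the minus strand for Kcnj9 and 172341210 to 172374085 on the plus strand for Kcnj10). Per 100 kb these were the densest Kcn loci, at 9.19 for Kcnj9 and 9.03 for Kcnj10. Of the 12, 10 were higher in replicate 2. The strongest, in an intron of Igsf8, had 3.32 and 7.89. The strongest shared peak in the body of Kcnj9 had 1.37 and 2.24.

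**Figure D5:**
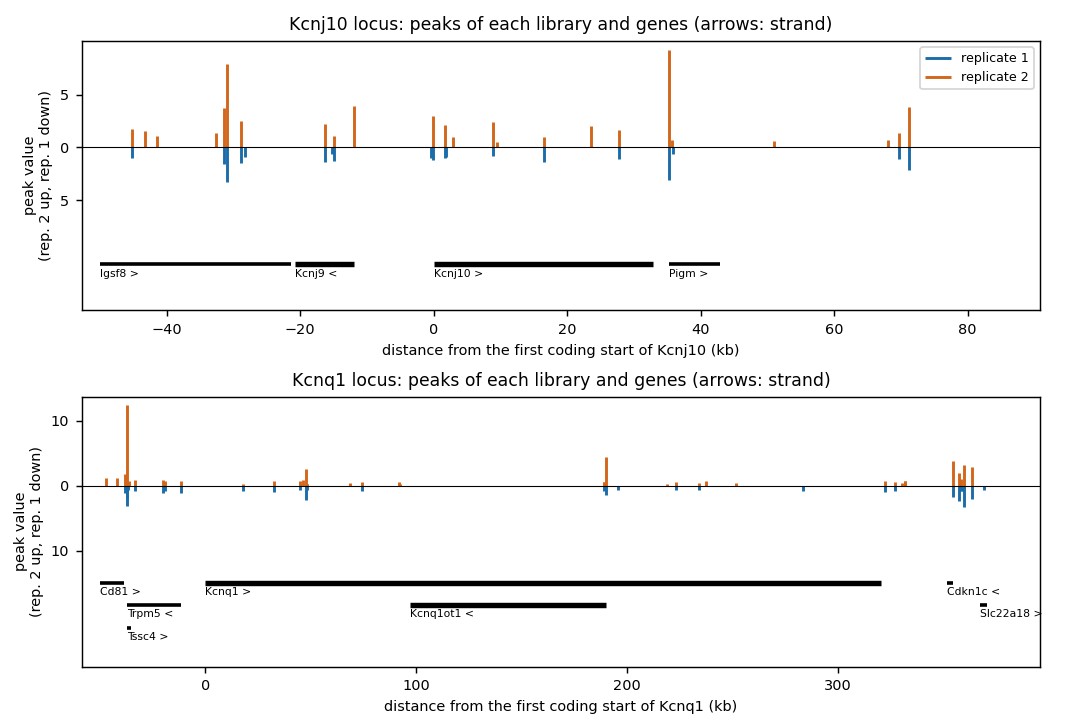
Peaks of replicate 2 (upward lines) and replicate 1 (downward lines) at the loci of Kcnj10 and Kcnq1, against the distance from the first coding start (kb), with genes as bars beneath. At Kcnj10 the peak of 3.90 at the start of Kcnj9 has no replicate 1 counterpart, and within Kcnq1 the tallest peak (4.45) lies at the start of Kcnq1ot1.

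Kcnip1 had 10 distal peaks, of which 8 lay in its body, with up to 2.64 in replicate 1 and 3.32 in replicate 2. Kcnip3 and Kcnq3 had 8 each, and all 8 at Kcnq3 were higher in replicate 2, with medians of 0.710 and 2.33. Kcnc4, Kcnd3 and Kcnn3 had 7 each. The density was also high at Kcnc4 (5.77), Kcnn4 (5.15), Kcnip3 (4.83), Kcne2 (4.73) and Kcnk15 (4.71). Kcnn4 and Kcne2 had closed promoters, so a dense locus did not go with an open promoter in each case. No shared distal peak was found at 12 loci: Kcna4, Kcnc2, Kcnh3, Kcnj3, Kcnj13, Kcnk6, Kcnk10, Kcnmb4, Kcns1, Kcnu1, Kcnv1 and Kcnv2. Among these, Kcnk10, Kcnv1, Kcnmb4, Kcna4, Kcnc2 and Kcnj3 had promoters open in both libraries.

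The strongest shared distal peak of the Kcn loci lay 2443 bp before the start of Kcnn1, with 4.43 in replicate 1 and 16.5 in replicate 2. Its values exceeded those of the Kcnn1 promoter itself (1.28 and 2.00). Other strong peaks lay in an intron of Kcnab2 (4.43 and 9.01) and on a non-coding exon in the flank of Kcnrg (3.58 and 8.68). Others lay in intergenic DNA before Kcnip3 (3.50 and 7.51) and an intron of Lmtk3 at the Kcnj14 locus (3.60 and 6.52). All 5 had higher values in replicate 2.

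The sequences of 4 of these and of the Igsf8 intron peak near Kcnj9 and Kcnj10 are given from the plus strand of mm10, since their footprints show what the strongest sites hold; capitals again mark deposited footprints of either library, and that of Kcnn1 is the central 300 bp of its peak.
Kcnn1, chr8:70865551-70865850: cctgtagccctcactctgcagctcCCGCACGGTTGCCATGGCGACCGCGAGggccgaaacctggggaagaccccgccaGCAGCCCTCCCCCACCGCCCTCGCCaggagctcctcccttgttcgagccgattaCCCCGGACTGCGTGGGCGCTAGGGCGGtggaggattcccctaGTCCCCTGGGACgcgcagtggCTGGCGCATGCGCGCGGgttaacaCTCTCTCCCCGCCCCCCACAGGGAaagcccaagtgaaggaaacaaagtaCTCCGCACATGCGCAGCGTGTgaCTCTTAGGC
Kcnab2, chr4:152434921-152435120: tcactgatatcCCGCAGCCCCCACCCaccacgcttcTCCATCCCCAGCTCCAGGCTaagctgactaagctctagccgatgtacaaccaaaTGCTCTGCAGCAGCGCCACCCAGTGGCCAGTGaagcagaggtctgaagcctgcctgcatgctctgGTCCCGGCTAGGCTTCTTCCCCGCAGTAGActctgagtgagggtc
Kcnip3, chr2:127559421-127559620: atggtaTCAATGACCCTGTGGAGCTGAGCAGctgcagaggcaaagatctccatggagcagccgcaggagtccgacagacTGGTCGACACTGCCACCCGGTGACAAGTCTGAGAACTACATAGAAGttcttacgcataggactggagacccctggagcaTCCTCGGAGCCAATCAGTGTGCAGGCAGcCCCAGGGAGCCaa
Kcnj14, chr7:45801481-45801640: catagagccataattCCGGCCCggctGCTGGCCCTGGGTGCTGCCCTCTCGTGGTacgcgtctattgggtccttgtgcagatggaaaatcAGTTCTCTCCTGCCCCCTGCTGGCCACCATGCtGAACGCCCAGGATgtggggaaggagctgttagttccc
Kcnj9 and Kcnj10, chr1:172310181-172310380: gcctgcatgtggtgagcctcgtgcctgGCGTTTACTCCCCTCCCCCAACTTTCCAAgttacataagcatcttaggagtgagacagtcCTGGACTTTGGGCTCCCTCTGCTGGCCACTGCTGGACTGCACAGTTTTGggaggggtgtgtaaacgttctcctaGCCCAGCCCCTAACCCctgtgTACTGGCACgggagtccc

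The consensus of the insulator protein CTCF, searched after these sequences had been seen, matched 3 of these 5, at Kcnab2, Kcnj14 and the Igsf8 intron, in each case wholly inside a footprint. Among the 279 distal peaks, in 150 bp at the centre, the consensus was found in 25.1%, beside 21.2% of all shared distal peaks. Among the 41 with a mean percentile above 90 it was found in 20 (48.8%), beside 33.8% of the 1982 such peaks in the genome. The site before Kcnn1 held no match to it, but GGGCGG, GCGCATGC and GTTGCCA, all inside footprints. The strongest distal sites at Kcn loci therefore include sites that match the CTCF consensus and 1 site, before Kcnn1, that holds GGGCGG, GCGCATGC and GTTGCCA. In 150 bp at the centre, these sequences were in 11.4%, 0.909% and 3.87% of all shared distal peaks. Before Kcnn1, GTTGCCA began at position 32 of the 300 bp shown, outside such a central window. For it, 3.87% is therefore not a like comparison. Whether the site before Kcnn1 acts as a promoter was not tested.

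Of 29 related genes outside the Kcn names, 22 were open in both libraries (58.9% of all genes), 28 in replicate 2 (65% of all) and 6 in replicate 2 alone (6.1% of all). The Kv4 partners Dpp6 (1.49 and 1.92) and Dpp10 (1.15 and 1.80) and the Kv2 partner Amigo1 (0.716 and 0.772) were open in both, as their pore subunits were. The partners of Kcnj11 in the ATP-sensitive channel, Abcc8 (0.812) and Abcc9 (0.286), were open in replicate 2 alone, whereas Kcnj11 was open in both. Of the BK gamma subunits, Lrrc38 and Lrrc52 were open in both, and Lrrc26 and Lrrc55 in replicate 2 alone. Of the Hcn genes, which carry the pacemaker current, Hcn3 (1.52 and 1.96) and Hcn4 (0.832 and 1.79) were open in both, and Hcn2 in neither. Among the 9 genes that hold Kv1 channels in the axon, Adam22 (1.80 and 6.02) and Dlg4 (2.17 and 7.22) stood above Kcna1 and Kcna2. Ank2, Ank3, Cntnap2, Lgi1 and Dlg1 stood above Kcna1 in both libraries, but not above Kcna2 in both. Dlg2 (0.600 and 0.565) stood below Kcna1 and Kcna2, and Cntnap1 was open in replicate 2 alone (0.798).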

How the data were processed

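Per the labels, peaks, footprints and FDR intervals were made by the authors for each library alone on mm10. No aligner, peak caller, footprint caller or normalisation factor was given in the sources used here. The peak value is the deposited signal column of the larger of the authors' 2 peak lists of each library, a coverage normalised for depth. Every value under 20 was a whole multiple, within 0.05 steps, of 0.00645 in replicate 1 and 0.00665 in replicate 2. The authors deposited false discovery rates (q-values) of the cut rate only for intervals under 0.05, and footprints with a p-value of 0.01 throughout, of which positions alone were used. The median peak held 122 and 94 steps.

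Genes were those of GENCODE M21. Promoter windows took 500 bp on either side of every coding start, and loci the gene body with 50000 bp on either side. Distal peaks were those of replicate 1, shared by at least 1 bp. Promoters and sequences came from the GRCm38 reference; the RefSeq promoter table of that build holds 69 of the 94 genes, and 97 of 97 Kcn entries were identical to the genome. Interval files were intersected with bedtools 2.31.1 and analysed in Python 3.11.15 (pandas 2.3.3, numpy 2.4.6, scipy 1.17.1, matplotlib 3.10.9), and the code was tested on simulated peaks. No p-value was computed, because 1 group of 2 libraries leaves no contrast, and genes and peaks are not replicates.

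The Kcn genes, the gene lists and the sequences searched were chosen with earlier results of these data known. Genes were named if they led their subfamily by mean percentile, were on a list of channel genes known in cerebellum or glia, were open in 1 library alone, had 1 of the 5 largest differences in either direction, the most or densest distal peaks, or 1 of the 6 strongest distal peaks; others were named to account for the rest, and a few items are not reported here. The closing section gives the alternatives tried: window, starts, peak list, equal peak numbers, scaling, flank, distance, overlap, and leaving out each library.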

Additional observations from a re-analysis of the deposited data

How the results depend on the processing

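The stricter peak list lowered the Kcn genes open in both libraries from 57 to 35 (37.2%, beside 52.3% of all genes). Those open in replicate 1 fell from 57 to 35 (37.2%, beside 52.7%). In replicate 2, 67 of 75 were kept (71.3% of Kcn genes, beside 60.8%). By subfamily, 8 of 21 moved under the stricter list, among them Kcnc (from 4 to 1), and none did with a window of 2000 bp. A window of 2000 bp gave 60 of 94 in both, beside 13481 of all 21670 coding genes. The first coding start alone gave 52, beside 11900, and equal numbers of peaks 50, beside 12197. The omission of genes that share their peak with another gene, chosen after seeing the data, gave 56. Without replicate 1 or without replicate 2 the count was 75 or 57, beside 14095 or 12985 of all genes. The median log2 difference lay between 0.56 and 0.86 under the other windows, starts, lists and sums, and reversed to -0.42 when values were divided by the library medians, since that step removes the general difference between the libraries. The 279 shared distal peaks, of 24085 in the genome, became 108 in gene bodies alone and 190 with flanks of 20000 bp. They became 246 (of 21940) at over 2500 bp from a start and 220 (of 19798) with an overlap of 50% of both peaks. In the stricter list there were 152 (of 12934). Counted in 1 library, distal peaks at Kcn loci numbered 998 (of 100022) without replicate 1 and 377 (of 38915) without replicate 2. The stricter list held values in both libraries for 35 of the 57 promoters. Each was the same as before, because a peak kept in that list had the same deposited value, so this is no check. When the peaks of a promoter were summed, 33 of 57 values moved. No paired analysis was possible because there is 1 group. The unknown depth in reads and the 2 libraries limit all counts: a closed promoter is one not called at this depth.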

Other observations

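Some Kcn loci held runs of weak peaks that 1 library alone showed. At the Kcnh6 locus, 18 of 24 distal peaks of replicate 1 had values under 0.4 and no counterpart in replicate 2. They lay in or by Dcaf7 on chromosome 11, from 106039960 to 106051300, with values of 0.0903 to 0.310. Kcng3 had 10 such peaks of 15, from 83593618 to 83599360 on chromosome 17 inside its own body. Kcnk12 had 9 of 11 and Kcna7 had 7 of 9, and Kcnk2, Kcnip1 and Kcnmb1 also held 5 or more. Over the genome 27.2% of distal peaks of replicate 1 were weak and unshared in this way, and 5.40% of loci held 5 or more. In replicate 2 the shares were 30.3% and 6.34%. There the weak peaks lay in long genes, such as 17 of 30 at Kcnip4, 14 of 19 at Kcnd2 and 11 of 19 at Kcnh7. Other Kcn loci with 5 or more there were Kcnq5, Kcnk2, Kcnh1, Kcnq1, Kcnc2, Kcnip1, Kcnh5, Kcnk10, Kcnk13, Kcnma1, Kcnj6, Kcnh8 and Kcnn2.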
